A study of Mus musculus with 9 samples.

Results

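The genes of glycogen metabolism, glycolysis and the pentose phosphate pathway were followed in mouse embryonic stem cells treated briefly with inhibitors of glycogen synthase kinase 3 (GSK3). The members were 34 rows of the deposited count table of 52264 rows, found by gene symbol: 9 genes of glycogen synthesis and breakdown, 3 membrane transporters of glucose and lactate, 18 genes of glycolysis and its regulation, and 4 genes of the pentose phosphate pathway. All 34 passed the filter on low counts and were tested. The rule that finds them uses symbols and no measured value, but members and lists were chosen with earlier results of these data known.

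The cells of all groups were labelled β-catenin-/-, so the control cells carried the same loss as the treated cells; the clone and the strain are not given. They were expanded on feeder-treated dishes in 3 µM CHIR-99021, 1 µM PD03 and 40 ng/ml LIF, and the medium was then replaced overnight by N2B27, a defined serum-free medium. All cells, the control cells included, had thus been exposed to CHIR before the experiment. CHIR-99021, called CHIR, inhibits both GSK3α and GSK3β, BRD0705 is known as an inhibitor selective for GSK3α, PD03 is a MEK inhibitor, and LIF is a cytokine that maintains stem cells. Each of the 3 groups held 3 libraries taken after 30 min of treatment: control conditions (called control), BRD0705, or CHIR, at doses the labels do not give. The sample titles call the control untreated and name no vehicle, so effects of solvent or handling cannot be told apart from those of the inhibitors. Nothing in the labels says that the 3 libraries of a group came from separate cultures, so p-values measure the spread between these libraries, which may be technical.

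GSK3 takes its name from glycogen synthase, the enzyme that extends glycogen chains from UDP-glucose and that GSK3 phosphorylates and thereby inactivates. This control acts on the protein, and RNA levels do not report it. Pluripotent stem cells are known for a high rate of glycolysis, in which glucose is split to pyruvate and much of the pyruvate is reduced to lactate; the pentose phosphate pathway branches off at glucose 6-phosphate and yields NADPH and ribose 5-phosphate. The comparisons address whether inhibition of GSK3α alone, or of both kinases, was accompanied by changes in the RNA of these pathways in cells without β-catenin.

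Upstream sequence of the members was examined because many glycolytic genes are textbook targets of hypoxia-inducible factors and of MYC-type factors. The RefSeq table used here, on GRCm38.p6, held 48 start sites of 33 members, and the 250 bases before each were searched on both strands; Slc2a3 had no entry. The E-box CACGTG was found before a start of 5 members, in 10.4% of the member windows and 6.02% of all 32851 windows in the table. Its 30-base surroundings are shown 5′ to 3′ on the gene's strand, with the motif in capitals, and were chosen for display with the test results known. They include Pfkfb3, which passed with CHIR against control and between the inhibitors, and Slc16a1, which passed only between the inhibitors. Ldha, Ppp1r3c and Pfkm did not pass. Whether the motif bears on these RNAs was not tested.
Pfkfb3, 53 bases before its second listed start, chr2:11502126-11502155, minus strand: cacccttctctcCACGTGaaagggggctgg
Slc16a1, 200 bases before the start, chr3:104638452-104638481, plus strand: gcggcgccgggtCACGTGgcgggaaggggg
Ldha, 145 bases before its first listed start, chr7:46845647-46845676, plus strand: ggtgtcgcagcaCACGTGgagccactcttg
Ldha, 48 bases before the same start, chr7:46845744-46845773, plus strand: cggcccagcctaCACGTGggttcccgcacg
Ppp1r3c, 104 bases before the start, chr19:36736691-36736720, minus strand: gagggaccggttCACGTGatctggctttga
Pfkm, 136 bases before its first listed start, chr15:98092441-98092470, plus strand: aattaagtatgcCACGTGaagtaagtaatt
The core of the hypoxia response element, ACGTG, lies within CACGTG on both strands and was present in windows of 16 members, in 39.6% of the member windows and 16.6% of all windows. Before the first listed start of Pfkfb3 it stood alone, in a 30-base stretch at chr2:11553972-11554001 on the minus strand.
Pfkfb3, 60 bases before its first listed start: ctccgcgccgtgACGTGccaagctgtgacc
The alternative core GCGTG was present in windows of 23 members, in 56.3% of the member windows and 28.2% of all windows. Letters of the AP-1 site TGANTCA occurred before Aldoa only, of the CRE palindrome TGACGTCA before Ldha only, and of the TCF motif CTTTGAT before Ppp1r3c and Taldo1. Their shares of all windows were 6.75%, 1.55% and 3.21%. Windows of 1 gene can overlap each other, and the stretches of Pfkfb3 and Ldha lie inside the annotated span of the gene, downstream of another start. A match of letters is a description of the sequence and not of binding.

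Depth was 17359422 to 20773337 counts per library. Within groups, pairs of libraries differed by 3.37 to 7.89 times the variance of counting alone, more than repeat counts of 1 library would. Ctnnb1, which encodes β-catenin, was read at 303 to 371 CPM (counts scaled to a common library size) in every library; the labels do not say which part of the gene is deleted, and no wild-type group is there to compare. Gsk3a stood at 181 to 243 CPM and Gsk3b at 74.9 to 92.2 CPM, with no adjusted p under 0.291 for either. The 10 stem cell markers summed to 5006 to 5105 CPM in control, 5064 to 5210 CPM in BRD0705 and 5195 to 5401 CPM in CHIR libraries, and 10 markers of differentiated cells to at most 26.5 CPM, with Foxa2 at 0 in all BRD0705 and CHIR libraries. Of the stem cell markers, 5 had positive and 5 negative fold changes with CHIR. Mean CPM in control and CHIR libraries was 886 and 1034 for Esrrb, and 945 and 892 for Pou5f1. The 12 fibroblast markers, which feeder cells would carry, were all detected and summed to 2463 to 2966 CPM in control, 3142 to 3234 CPM in BRD0705 and 2804 to 3343 CPM in CHIR libraries. In these bulk libraries, fewer cells of a type and less RNA per cell cannot be told apart. All 12 fibroblast markers had positive fold changes with both inhibitors, against 47.6% of all tested genes with CHIR and 49% with BRD0705. Col1a1 and Col5a1 passed with each inhibitor, where 6.3% of all tested genes passed with CHIR and 1.22% with BRD0705. With CHIR their calls held in 5 and 3 of 9 fits with a single library left out, and were lost with scaling by library size only. With BRD0705 both held in 5 of 9 and were lost with GC and length trends removed. For genes that passed or came near, the value with the fibroblast markers as a covariate is given below. The mean log2 CPM of these markers was 6.27 to 6.50 in control, 6.60 to 6.67 in BRD0705 and 6.40 to 6.67 in CHIR libraries. Control and BRD0705 did not overlap, so this covariate and the BRD0705 treatment cannot be told apart. What part feeder RNA has in these or the other values was not tested.

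The members took 3.72 to 4.16% of all counts of a library, with means of 3.93% ± 0.21 in control, 3.88% ± 0.10 in BRD0705 and 3.90% ± 0.17 in CHIR libraries (SD, n = 3 each). Gapdh, the dehydrogenase of the middle of glycolysis, alone took 1.12 to 1.47%. The groups overlapped in both shares. The genes of glycolysis together took 3.38 to 3.82% of counts, the transporters 0.139 to 0.150% and the glycogen genes 0.0466 to 0.0514%, with overlapping groups in each case. The 4 pentose phosphate genes took 0.139 to 0.146% in control, 0.135 to 0.139% in CHIR and 0.132 to 0.137% in BRD0705 libraries, so that control and BRD0705 did not overlap in this sum. Taken singly in CPM, Tkt, Taldo1 and Pgd overlapped between control and BRD0705, while G6pdx was higher in every BRD0705 library.

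Levels were compared between genes as CPM per kb of the canonical transcript, averaged over the 9 libraries. The highest members were all glycolytic: Gapdh stood at 9117 CPM per kb, the enolase Eno1 at 2739, the aldolase Aldoa at 2514, the pyruvate kinase Pkm at 1501, the mutase Pgam1 at 974, the lactate dehydrogenase Ldha at 959, the isomerase Gpi1 at 870.1 and the kinase Pgk1 at 616 CPM per kb. The ranges of Eno1 and Aldoa over the 9 libraries overlapped, as did those of Pgam1, Ldha and Gpi1. The phosphofructokinases Pfkp and Pfkl were lower, at 107 and 93.5 CPM per kb, as were the hexokinases Hk1 and Hk2, at 29.8 and 25.8 CPM per kb. The order of Hk1 and Hk2 rests on the transcript lengths used, as Hk2 had the higher mean CPM (201 against 128). The transketolase Tkt led the pentose phosphate genes at 282 CPM per kb, above the transaldolase Taldo1 at 118, the dehydrogenase Pgd at 55.8 and G6pdx, which catalyses the committed step, at 22.2 CPM per kb. Of the glycogen genes, the synthase Gys1 was the highest at 51.1 CPM per kb, and the primer protein gene Gyg (7.51), the branching enzyme gene Gbe1 (5.75) and Ugp2, which makes UDP-glucose (5.71), lay close together. Ppp1r3c, which encodes a subunit that brings protein phosphatase 1 to glycogen, was the lowest member at 0.96 CPM per kb.

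**Figure D1:**
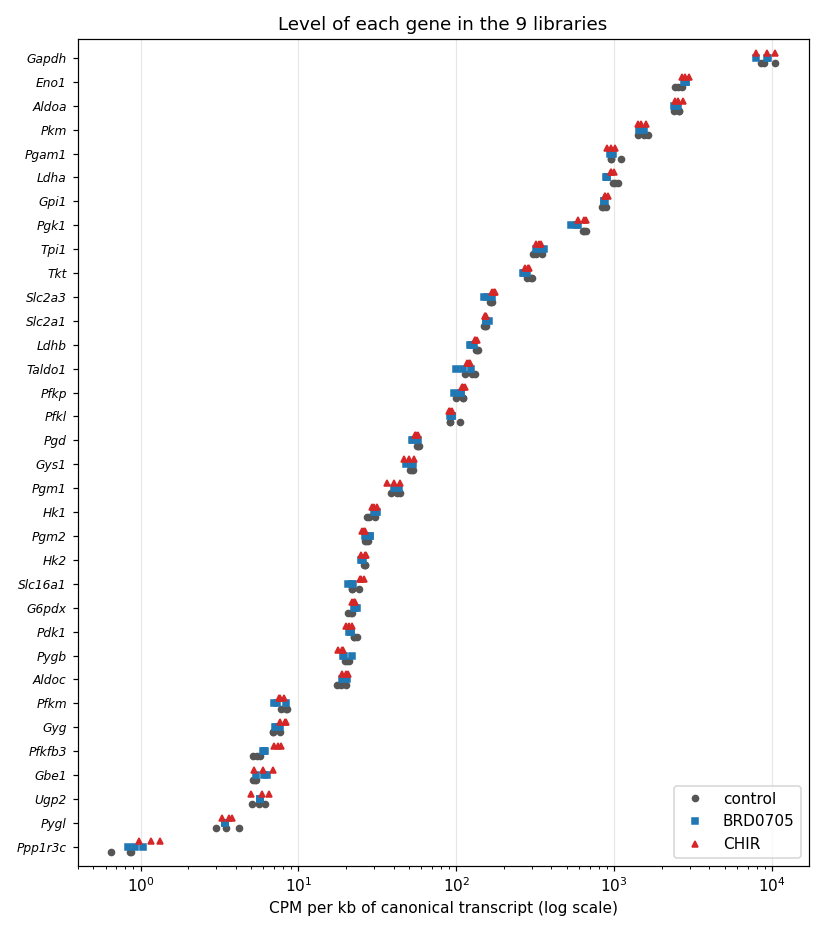
Level of each of the 34 genes in CPM per kb of canonical transcript (log axis), 1 point per library, with genes ordered by their mean. Gapdh, at 7884 to 10474 CPM per kb, lies above every other gene, and Ppp1r3c, at 0.65 to 1.33, below every other gene.

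Some reads cannot be assigned to a member with certainty. Gapdh has 76 rows of at least 95% identity in the table, which together held 2.35 to 2.90% of the count of Gapdh, while Pgk1 has 3 such rows with 1.06 to 1.50%. The use of strand is not given in the sources used here. Without it, exon overlap with a gene on the other strand leaves part of Gapdh (41.6% of its exon bases, Iffo1), Pfkl (39.8%, Cfap410), Ugp2 (19.0%, Vps54), Pgm1 (16.7%, Itgb3bp) and Pfkp (11.1%, Pitrm1) uncertain. The mean count of the other gene was small for Gapdh (191 against 251049) and Pfkl (179 against 7466). It was above that of the member for Ugp2 (951 against 419). The same held in smaller overlaps of Gys1 (5.35%, Ruvbl2, 6369 against 3685), Gyg (5.25%, Hltf, 876 against 297) and Pfkm (4.36%, Senp1, 1461 against 609). Pfkfb3, Slc16a1, Ldha and Pgk1 have no such overlap. The symbols Pgm1 and Pgm2 are listed as synonyms of each other, so which of the 2 rows is which phosphoglucomutase is uncertain.

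Isozyme composition was nearly the same in all groups. Aldoa made up 99.2 to 99.3% of the summed CPM per kb of Aldoa and Aldoc, Ldha 87.2 to 88.5% of the lactate dehydrogenases, and Pygb, the brain form of glycogen phosphorylase, 82.7 to 87.5% of Pygb and Pygl over the 9 libraries. Pfkp, Pfkl and Pfkm shared the phosphofructokinases at 48.7 to 53.5%, 42.7 to 47.2% and 3.40 to 4.21%. Hk2 held 48.1% ± 1.48 of Hk1 and Hk2 in control, 45.0% ± 0.85 in BRD0705 and 46.2% ± 0.70 in CHIR libraries (SD, n = 3 each). Control and BRD0705 did not overlap in this share. Slc2a1 held 48.2, 47.4 and 47.8% of the glucose transporter pair Slc2a1 and Slc2a3 in control libraries, 49.7, 49.0 and 50.9% with BRD0705, and 47.7, 46.6 and 46.4% with CHIR. The BRD0705 libraries thus lay above both other groups; the shares were not tested.

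**Figure D2:**
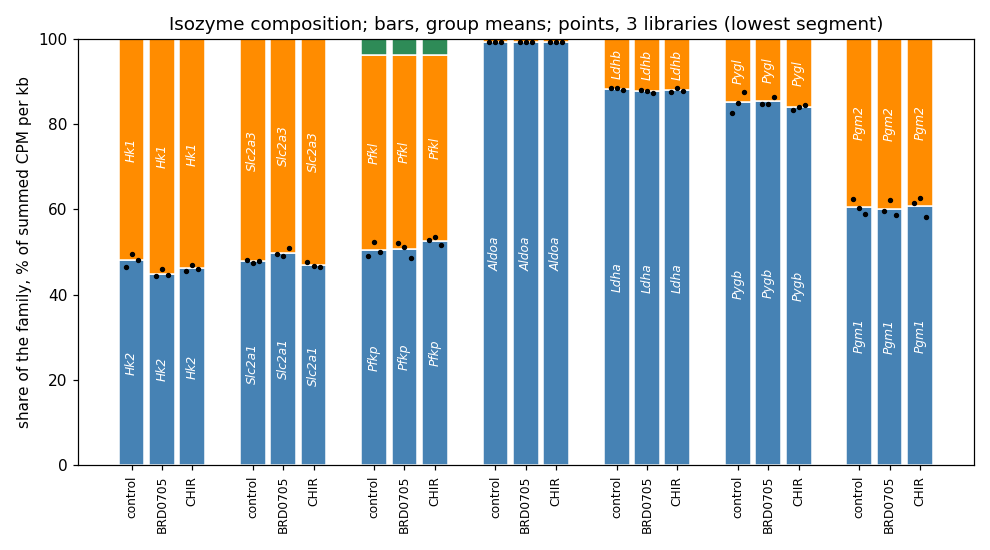
Share of each isozyme in the summed CPM per kb of its family, as stacked bars of group means, with points for the 3 libraries at the top of the lowest segment; the green segment is Pfkm and the thin segment above Aldoa is Aldoc. Within each family the 3 groups look alike, and the lowest segment of the hexokinases, Hk2, spans 44.4 to 49.5% over the libraries.

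CHIR against control asked what inhibition of both GSK3 kinases did to these RNAs within 30 min. Pfkfb3 was higher with CHIR, and it alone of the 34 members passed the test (edgeR's quasi-likelihood test, adjusted p under 0.05 over 15366 genes); 6.3% of all tested genes passed, 2.52% higher and 3.78% lower with CHIR. Pfkfb3 makes fructose 2,6-bisphosphate, the strongest allosteric activator of phosphofructokinase 1. None of the 9 glycogen genes, the 3 transporters or the 4 pentose phosphate genes passed. The median log2 fold change of the members was -0.00, against -0.01 over all tested genes, and the median of its absolute size was 0.06 against 0.11. The members were also measured more precisely, with a median standard error of 0.06 against 0.09, so the absolute sizes are not compared at equal noise.

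Pfkfb3 (GRCm38 chr2:11471430-11554071) stood at 32.2, 30.9 and 29.1 CPM in the control libraries, 33.4, 34.1 and 34.5 CPM with BRD0705 and 41.8, 43.5 and 39.3 CPM with CHIR. Every CHIR library lay above every other library, and every BRD0705 library above every control library. Against control, the log2 fold change with CHIR was 0.44 ± 0.06 (SE), 35.2% higher, with a 95% interval of 0.30 to 0.57 and an adjusted p of 0.000482 (edgeR). With the mean log2 CPM of the fibroblast markers as a covariate it was 0.36 with an adjusted p of 0.0373 (edgeR), the highest over all alternatives, whose lowest was 5.89e-07. The gene passed with each of the 9 libraries left out in turn.

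Ppp1r3c showed the largest fold change of all members but rested on 44 to 81 counts per library. It was read at 2.91, 2.86 and 2.17 CPM in the control libraries, 3.10, 3.47 and 2.80 CPM with BRD0705 and 3.89, 4.46 and 3.28 CPM with CHIR. All CHIR libraries lay above all control libraries, and the log2 fold change was 0.55 ± 0.18 (SE, 95% interval 0.17 to 0.93), with an adjusted p of 0.0786 (edgeR). Slc16a1, which encodes the monocarboxylate transporter that carries lactate, stood at 100.0, 112 and 100.5 CPM in the control libraries, 94.9, 100.0 and 102 CPM with BRD0705 and 119, 114 and 114 CPM with CHIR. The CHIR libraries lay above the control libraries by a log2 fold change of 0.15 ± 0.06 (SE), adjusted p = 0.131 (edgeR).

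Both genes and Eno1 passed in this comparison once each library's trends with GC content and length were removed. This alternative, chosen after seeing the data, gave 4 members with Pfkfb3, and calls over all tested genes rose as well, as given at the end. That correction also moved the median log2 fold change upward, to 0.04 over all genes and 0.05 over the members. With the fibroblast marker covariate the adjusted p was 0.512 for Ppp1r3c, 0.246 for Slc16a1 and 0.36 for Eno1 (edgeR). Eno1, the main enolase, was read at 6173, 5554 and 5854 CPM in the control libraries, 6572, 6575 and 6340.2 CPM with BRD0705 and 6126, 6466 and 6867 CPM with CHIR. Its log2 fold change was 0.15 ± 0.06 (SE) with CHIR and likewise 0.15 ± 0.06 (SE) with BRD0705, with adjusted p-values of 0.130 and 0.191 (edgeR). CHIR and control overlapped, BRD0705 and control did not.

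Glycogen synthase itself did not pass in any comparison. Gys1 (GRCm38 chr7:45434839-45456617) stood at 199, 194 and 188 CPM in the control libraries, 197, 190.4 and 179 CPM with BRD0705 and 174, 185 and 201 CPM with CHIR. The 3 groups overlapped, with means of 193 ± 5.29, 189 ± 9.32 and 187 ± 13.3 CPM (SD, n = 3 each), and the 95% interval of the log2 fold change was -0.17 to 0.07 with CHIR and -0.16 to 0.09 with BRD0705. Gyg encodes glycogenin, which primes the glycogen chain. It was read at 15.6, 14.1 and 13.9 CPM in the control libraries, 14.4, 15.6 and 14.7 CPM with BRD0705 and 16.6, 16.9 and 15.6 CPM with CHIR, a log2 fold change of 0.17 ± 0.08 with CHIR (SE, adjusted p = 0.261, edgeR). Gbe1, the branching enzyme gene, stood at 15.9, 16.6 and 16.7 CPM in the control libraries, 16.9, 19.7 and 18.9 CPM with BRD0705 and 18.5, 21.6 and 16.2 CPM with CHIR. With CHIR its log2 fold change was 0.19 ± 0.10 (SE, adjusted p = 0.273, edgeR), and the CHIR libraries spread across the control range.

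Breakdown of glycogen starts with the phosphorylases. Pygb stood at 79.5, 78.0 and 82.3 CPM in the control libraries, 74.7, 75.8 and 85.3 CPM with BRD0705 and 75.2, 74.2 and 70.1 CPM with CHIR; the CHIR libraries lay below the control libraries, with a log2 fold change of -0.13 (adjusted p = 0.249, edgeR). Pygl, the liver form, stood at 12.1, 10.03 and 8.57 CPM in the control libraries, 9.79, 9.90 and 9.88 CPM with BRD0705 and 10.9, 10.4 and 9.46 CPM with CHIR, with overlapping groups. Phosphoglucomutase links glucose 1-phosphate and glucose 6-phosphate. Pgm1 was read at 104, 100.3 and 91.2 CPM in the control libraries, 99.2, 103 and 96.1 CPM with BRD0705 and 95.4, 104 and 86.3 CPM with CHIR. Pgm2 was read at 62.9, 66.1 and 63.8 CPM in the control libraries, 67.9, 62.8 and 67.9 CPM with BRD0705 and 59.9, 62.5 and 62.3 CPM with CHIR, and its CHIR libraries lay just below the control libraries at a log2 fold change of -0.06. Ugp2 ranged from 18.8 to 24.4 CPM with overlapping groups.

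In glycolysis beyond Pfkfb3, Pdk1 was the only gene whose CHIR and control libraries did not overlap. It encodes a kinase that inactivates pyruvate dehydrogenase. It stood at 119, 124 and 118 CPM in the control libraries, 110.2, 113 and 114 CPM with BRD0705 and 109.8, 106 and 114 CPM with CHIR, with a log2 fold change of -0.13 ± 0.05 with CHIR (SE, adjusted p = 0.171, edgeR) and an adjusted p of 0.387 (edgeR) with BRD0705. Over all members, 6 had groups that did not overlap in this comparison, Ppp1r3c, Slc16a1 and Pfkfb3 higher and Pygb, Pgm2 and Pdk1 lower; 25.1% of all tested genes did not overlap, 10.9% higher and 14.1% lower. An unadjusted p under 0.05 was given to 5 members and to 20.5% of all tested genes.

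The precision bounds what could have been missed. Standard errors of the log2 fold changes ran from 0.05 to 0.18, and with CHIR the 95% interval lay within ±0.5 for 32 of the 34 members and within ±0.25 for 27. The 2 exceptions at ±0.5 were Pfkfb3 and Ppp1r3c.

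**Figure D3:**
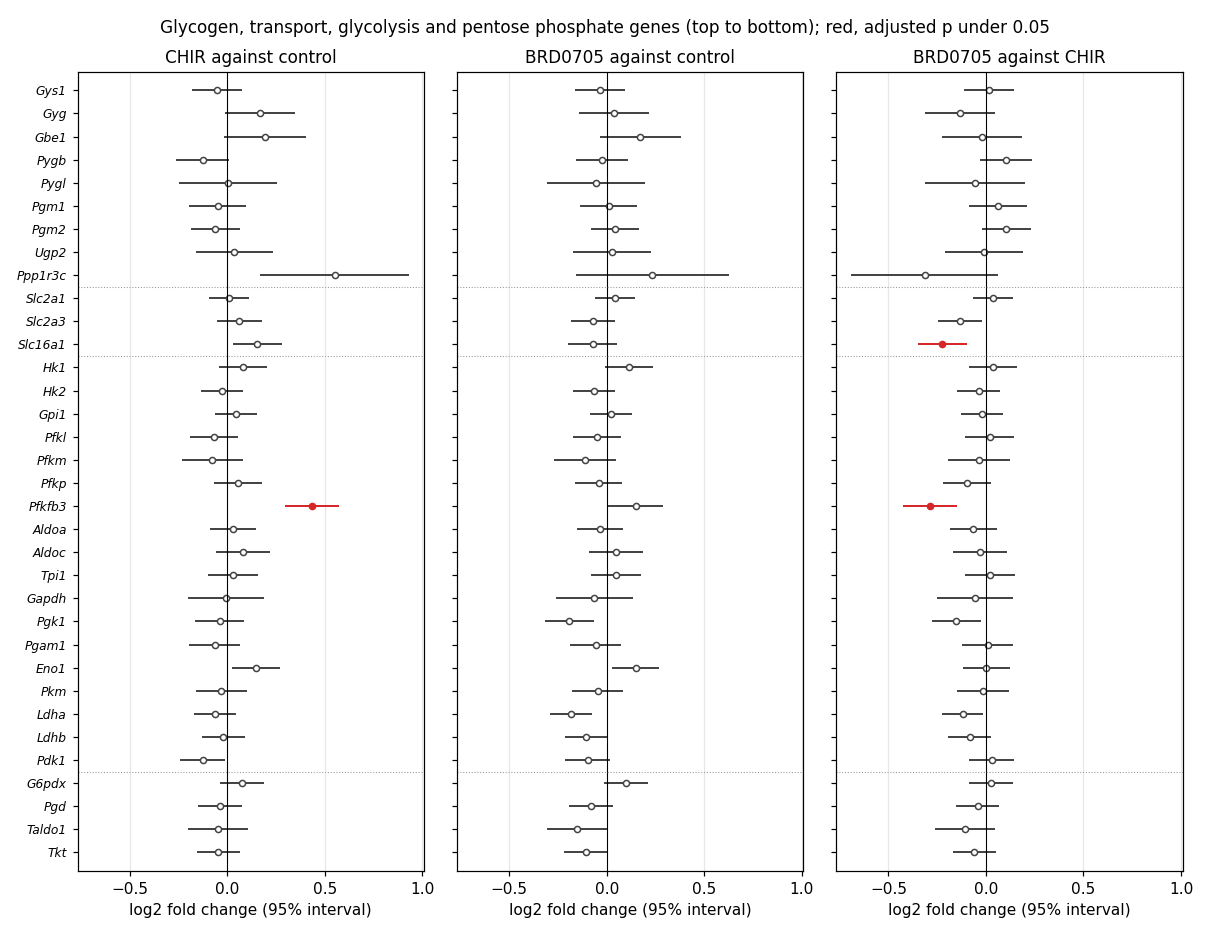
Log2 fold change of each member with its 95% interval in the 3 comparisons (edgeR); red marks an adjusted p under 0.05, and dotted lines separate glycogen, transport, glycolysis and pentose phosphate genes. Pfkfb3 is red in CHIR against control (0.44) and in BRD0705 against CHIR (-0.29), Slc16a1 in the latter (-0.22), and no gene is red in BRD0705 against control.

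BRD0705 against control asked the same of GSK3α inhibition; the control libraries are those of the first comparison. None of the 34 members passed with edgeR, while 1.22% of all tested genes did, 0.69% higher and 0.534% lower with BRD0705. At an unadjusted p under 0.05 there were 7 members, Pgk1, Ldha, Ldhb, Taldo1 and Tkt with lower and Eno1 and Pfkfb3 with higher values; 15.9% of all tested genes were at that level. DESeq2 called 2 members, Ldha and Pgk1, and limma voom 0. It also called more genes than edgeR over all tested genes, as given at the end. The median log2 fold change was -0.04, with 14 of 34 positive, against a median of -0.00 and 49% positive over all tested genes. With a single library left out, the members' median ran from -0.042 to 0.011, and it was positive only without control replicate 1.

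Ldha encodes the main lactate dehydrogenase subunit, which converts pyruvate to lactate. Ldha (GRCm38 chr7:46842274-46855627) stood at 1666, 1611 and 1549.6 CPM in the control libraries, 1420.2, 1419.9 and 1413 CPM with BRD0705 and 1523, 1587 and 1512 CPM with CHIR. The BRD0705 libraries were tightly spaced and lay below all 6 other libraries. The log2 fold change against control was -0.18 ± 0.05 (SE, 95% interval -0.28 to -0.08), 11.9% lower by the fit's estimate, with an adjusted p of 0.069 (edgeR). Over the alternatives (edgeR, DESeq2 and limma) the adjusted p ran from 0.00497 to 0.551. It was under 0.05 in 2 of 13, DESeq2 and edgeR with no filter on low counts, and in 0 of the 9 with a single library left out. The highest value was that with the fibroblast marker covariate, which does not overlap between control and BRD0705, and there the log2 fold change was -0.23. Its partner Ldhb stood at 211, 202 and 205 CPM in the control libraries, 187, 189 and 199 CPM with BRD0705 and 208, 199.7 and 202 CPM with CHIR, again with BRD0705 below both other groups, and an adjusted p of 0.313 (edgeR) against control, or 0.735 with that covariate.

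Pgk1, phosphoglycerate kinase, catalyses the first ATP-forming step of glycolysis. It was read (GRCm38 chrX:106187100-106203699) at 1217, 1183 and 1155 CPM in the control libraries, 968, 1066 and 1078 CPM with BRD0705 and 1212, 1175 and 1069.7 CPM with CHIR. BRD0705 lay below control in every library, with replicate 1 the lowest of the 9. The log2 fold change was -0.19 ± 0.06 (SE, 95% interval -0.31 to -0.07), with an adjusted p of 0.104 (edgeR). Over the alternatives (edgeR, DESeq2 and limma) the adjusted p ran from 0.0292 to 0.498, under 0.05 in the same 2 of 13 as for Ldha and in 0 of the 9 with a single library left out. The highest was again that with the fibroblast marker covariate, at a log2 fold change of -0.28.

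Pfkfb3 was 10.8% higher with BRD0705 by the fit, a log2 fold change of 0.15 ± 0.06 (SE, 95% interval 0.01 to 0.28), and did not pass at an adjusted p of 0.272 (edgeR); with the fibroblast marker covariate it was 0.05 with an adjusted p of 0.941. Ppp1r3c had a log2 fold change of 0.23 ± 0.18 (SE), adjusted p = 0.587 (edgeR), and Gbe1 of 0.17 ± 0.10 (SE), adjusted p = 0.412 (edgeR).

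Of the pentose phosphate genes, Taldo1 stood at 158, 144 and 166 CPM in the control libraries, 139, 125 and 156 CPM with BRD0705 and 147, 154 and 151 CPM with CHIR. The BRD0705 libraries spread from 125 to 156 CPM and overlapped control, at a log2 fold change of -0.15 ± 0.07 (SE, adjusted p = 0.302, edgeR). With the fibroblast marker covariate the adjusted p was 0.671 for Taldo1 and 0.799 for Tkt (edgeR). Tkt had means of 943 ± 35.2 CPM in control, 876 ± 25.1 in BRD0705 and 913 ± 25.6 in CHIR libraries, and Pgd of 197 ± 3.28, 186 ± 8.53 and 192 ± 3.42 CPM (SD, n = 3 each). G6pdx ran the other way, at 126 ± 4.32, 135 ± 3.02 and 132 ± 3.24 CPM, with BRD0705 above control in every library and an adjusted p of 0.358 (edgeR).

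The hexokinases trap glucose in the cell by phosphorylation. Hk1 stood at 130.0, 116 and 120.1 CPM in the control libraries, 133, 129 and 134 CPM with BRD0705 and 134, 129 and 125 CPM with CHIR. Hk2 stood at 206, 207 and 204 CPM in the control libraries, 194, 199 and 197 CPM with BRD0705 and 205, 208 and 193 CPM with CHIR. All BRD0705 libraries lay below control for Hk2, while for Hk1 BRD0705 replicate 2 fell just under control replicate 1 and the others lay above it; neither gene passed (adjusted p of 0.557 and 0.323, edgeR). Glucose enters through Slc2a1 and Slc2a3, which encode GLUT1 and GLUT3. Slc2a1 was read at 683, 675 and 664 CPM in the control libraries, 681, 715 and 688 CPM with BRD0705 and 684, 679.7 and 671 CPM with CHIR. Slc2a3 was read at 653, 668 and 645 CPM in the control libraries, 615, 663 and 592 CPM with BRD0705 and 667, 693 and 690.2 CPM with CHIR, so that it was lowest in BRD0705 replicates 1 and 3.

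Phosphofructokinase commits sugar to glycolysis. Pfkl was read at 433, 374 and 376 CPM in the control libraries, 374, 385 and 383 CPM with BRD0705 and 375, 370.0 and 382 CPM with CHIR, with control replicate 1 above the other 8 libraries. Pfkp was read at 472, 473 and 430.3 CPM in the control libraries, 461, 459 and 416 CPM with BRD0705 and 477, 487 and 465 CPM with CHIR. Pfkm, the muscle form, was read at 33.4, 33.7 and 30.9 CPM in the control libraries, 27.9, 29.1 and 33.4 CPM with BRD0705 and 30.6, 32.2 and 30.1 CPM with CHIR. No group stood apart from control for any of them. Aldolase splits the 6-carbon sugar. Aldoa was read at 3902, 3627 and 3875 CPM in the control libraries, 3620.0, 3823 and 3695 CPM with BRD0705 and 3673, 3856 and 4116 CPM with CHIR. Aldoc was read at 56.1, 52.1 and 49.1 CPM in the control libraries, 53.7, 56.6 and 52.5 CPM with BRD0705 and 55.8, 57.8 and 52.9 CPM with CHIR. Both overlapped between groups.

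The remaining glycolytic genes overlapped between all 3 groups. Gapdh ranged from 11195 to 14873 CPM, Gpi1 from 2428 to 2645, Tpi1, the triose phosphate isomerase, from 494 to 576, Pgam1 from 1626 to 1972 and Pkm from 3441 to 4003 CPM. Gapdh is often used to normalise other transcripts; its range within the CHIR group, 11195 to 14873 CPM, covered all BRD0705 and control libraries.

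Over all members, 9 had BRD0705 and control libraries that did not overlap, against 20.2% of all tested genes, 9.83% higher and 10.4% lower. Gbe1, Pfkfb3, Eno1 and G6pdx were higher and Hk2, Pgk1, Ldha, Ldhb and Pdk1 lower. The 95% interval lay within ±0.5 for 33 members and within ±0.25 for 24.

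**Figure D4:**
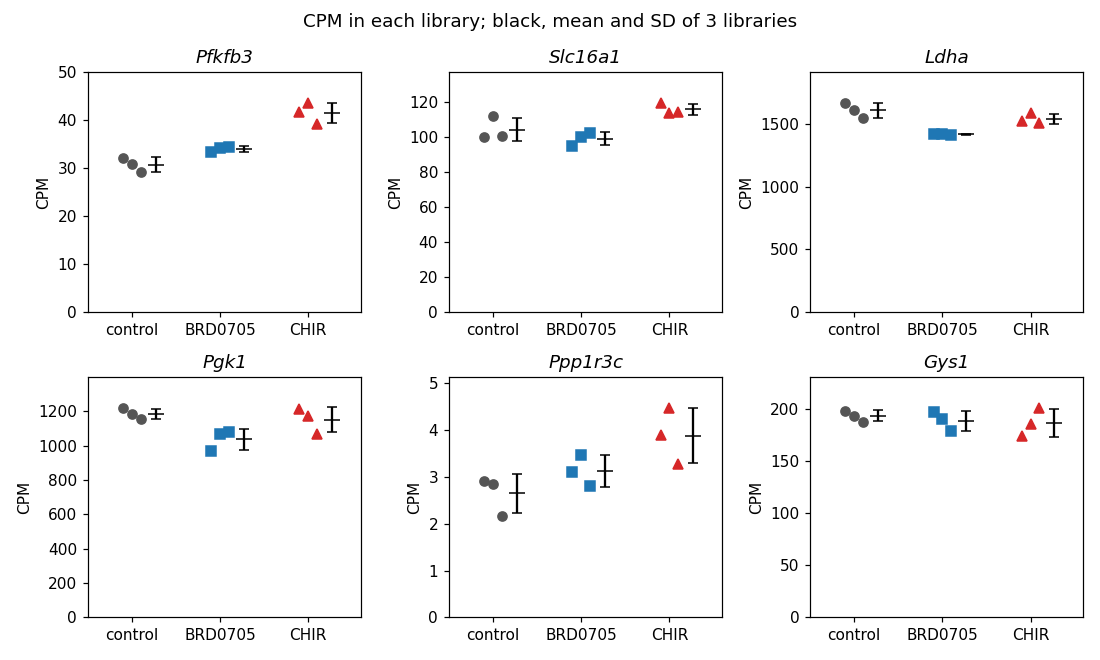
CPM of 6 members in each library by group, with the mean and SD of the 3 libraries in black and every axis starting at 0. Pfkfb3 is highest in CHIR (39.3 to 43.5 CPM), Ldha lowest in BRD0705 (1413 to 1420.2 CPM), and Gys1 overlaps between the groups.

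BRD0705 against CHIR tested the difference between the inhibitors directly. Pfkfb3 and Slc16a1 were lower with BRD0705 than with CHIR, and these 2 of the 34 members passed, both in that direction; 2.97% of all tested genes passed in that direction, 4.8% in the other and 7.77% in either. The doses are not given, so the values compare the treatments as applied. Each library's deviations from the gene means correlated with GC content (Spearman) at 0.054 to 0.260 in BRD0705 and -0.116 to -0.054 in CHIR libraries. Control libraries ran from -0.292 to 0.193. BRD0705 and CHIR did not overlap, so in this comparison the GC trend and the treatments cannot be told apart. What part the trend has in these values was not tested. For Pfkfb3 the log2 fold change was -0.29 ± 0.06 (SE, 95% interval -0.42 to -0.15), 18.1% lower, with an adjusted p of 0.00918 (edgeR). Leaving out single libraries kept the call in 8 of 9 cases; without CHIR replicate 2 it was -0.26 with an adjusted p of 0.0563 (edgeR), and the lowest over the alternatives was 0.000776. With the fibroblast marker covariate it was -0.31 with an adjusted p of 0.00808 (edgeR).

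For Slc16a1 (GRCm38 chr3:104638664-104658462) the log2 fold change was -0.22 ± 0.06 (SE, 95% interval -0.34 to -0.10), 14.4% lower, with an adjusted p of 0.0239 (edgeR). This call was lost without BRD0705 replicate 1 (0.106), BRD0705 replicate 2 (0.0591), CHIR replicate 1 (0.0935) or CHIR replicate 2 (0.060), as adjusted p from edgeR, and with scaling by library size only (0.070). With the fibroblast marker covariate the adjusted p was 0.0472 (edgeR), and the lowest over the alternatives was 0.00771. Control lay between the inhibitors in the mean, and overlapped BRD0705 but not CHIR.

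Slc2a3, Pgk1 and Ldha followed by unadjusted p, with adjusted p-values of 0.133, 0.122 and 0.147 (edgeR) and log2 fold changes of -0.13, -0.15 and -0.12. Ppp1r3c had a log2 fold change of -0.32 ± 0.18 (SE, 95% interval -0.69 to 0.06), and Gyg of -0.13 with an adjusted p of 0.372 (edgeR). The interval for Gys1 was -0.11 to 0.14. Over all members, 12 of 34 fold changes were positive, against 50.8% of all tested genes, and the median was -0.03 against 0.00. There were 7 members that did not overlap, against 26.7% of all tested genes, 13.7% higher and 12.9% lower with BRD0705. Pgm2 was the higher one; Slc2a3, Slc16a1, Pfkp, Pfkfb3, Ldha and Ldhb were lower.

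The wider pathways were read from lists of 85 further genes, of which 69 were tested. With CHIR, 2 passed, both higher, or 2.90% of those tested against 6.3% of all tested genes: Phkg2, a catalytic subunit of phosphorylase kinase, which activates glycogen phosphorylase, and the neuronal enolase Eno2. Phkg2 stood at 28.8, 29.1 and 29.9 CPM in the control libraries, 35.6, 33.8 and 35.5 CPM with BRD0705 and 40.4, 34.1 and 35.9 CPM with CHIR. All treated libraries lay above the control libraries, with a log2 fold change of 0.33 ± 0.07 with CHIR (SE, adjusted p = 0.00718, edgeR) and 0.26 ± 0.07 with BRD0705 (SE, adjusted p = 0.0717, edgeR). Eno2 stood at 11.4, 10.8 and 10.3 CPM in the control libraries, 15.9, 13.8 and 11.7 CPM with BRD0705 and 17.0, 16.3 and 15.6 CPM with CHIR, again with every treated library above control, at 0.59 ± 0.10 with CHIR (SE, adjusted p = 0.00205, edgeR) and 0.34 with BRD0705 (adjusted p = 0.111, edgeR). With the fibroblast marker covariate the adjusted p with CHIR was 0.121 for Phkg2 and 0.0803 for Eno2 (edgeR), the highest for each over the alternatives; the lowest were 0.000573 and 1.56e-06.

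With BRD0705 against control, 0 of the 69 passed in edgeR and 9 had an unadjusted p under 0.05. Over all tested genes, 1.22% passed and 15.9% had an unadjusted p under 0.05. DESeq2 called 2 of the 69, Phkg2 and Rpe, and limma voom 0. Over all tested genes DESeq2 also called more than edgeR, as given at the end. Between the inhibitors 3 passed, or 4.35% of those tested, against 7.77% of all tested genes. H6pd, which starts a pentose phosphate pathway inside the endoplasmic reticulum, stood at 33.7, 32.0 and 32.7 CPM in the control libraries, 36.7, 36.8 and 32.8 CPM with BRD0705 and 28.3, 30.9 and 29.4 CPM with CHIR. It was higher with BRD0705 than with CHIR by 0.26 ± 0.07 on the log2 scale (SE, adjusted p = 0.0229, edgeR) and lost the call with GC and length trends removed (0.142) and in 4 of 9 cases with a single library left out; with the fibroblast marker covariate its adjusted p was 0.0437 (edgeR). Rpe, the ribulose phosphate epimerase, stood at 46.1, 55.7 and 50.8 CPM in the control libraries, 41.8, 42.6 and 44.9 CPM with BRD0705 and 57.3, 55.6 and 54.7 CPM with CHIR, lower with BRD0705 than with CHIR by a log2 fold change of -0.37 ± 0.07 (SE, adjusted p = 0.00237, edgeR); its exons overlap Kansl1l on the other strand. The adjusted p with the covariate was 0.00575 (edgeR). Slc2a6, a glucose transporter of lysosomes, was read at 0.79, 0.63 and 0.79 CPM in the control libraries, 1.18, 1.02 and 0.85 CPM with BRD0705 and 0.35, 0.55 and 0.49 CPM with CHIR. It passed with an adjusted p of 0.047 (edgeR), a call lost whenever any 1 library was left out and held in 4 of 11 other alternatives; with the fibroblast marker covariate it was 0.0806.

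A list of 27 regulators and reporters of hypoxia and glucose sensing had 26 tested genes. Of these, 6 passed with CHIR (23.1%, against 6.3% of all tested genes), 3 in each direction against 2.52% of all tested genes higher and 3.78% lower. The list was chosen with earlier results of these data known, so this share describes the list and is not a test. Its median standard error was also smaller, at 0.07 against 0.09 over all tested genes. Higher were Vegfa, the vascular growth factor, at 0.36 ± 0.07, and Txnip, a glucose-induced inhibitor of thioredoxin, at 0.29 ± 0.06 (log2 fold change and SE, adjusted p of 0.00381 and 0.00847, edgeR); Ndrg1 was the third. Vegfa stood at 67.7, 62.9 and 60.2 CPM in the control libraries, 71.8, 71.9 and 74.5 CPM with BRD0705 and 74.5, 89.4 and 80.5 CPM with CHIR. Txnip stood at 376, 382 and 324 CPM in the control libraries, 392, 411 and 377 CPM with BRD0705 and 435, 464 and 426 CPM with CHIR. For both, the CHIR libraries lay above the control libraries. Lower were Mycn, a transcription factor of growth, at -0.28 ± 0.05, and Ankrd37, a hypoxia reporter, at -0.47 ± 0.11 (log2 fold change and SE, adjusted p of 0.00205 and 0.0156, edgeR), and Myc. The call of Myc held in 6 of 13 alternatives and in 2 of the 9 with a single library left out; median-of-ratios size factors and limma voom were among those that ended it. Ankrd37 stood at 9.07, 8.77 and 9.07 CPM in the control libraries, 6.47, 7.23 and 7.79 CPM with BRD0705 and 6.28, 6.61 and 6.51 CPM with CHIR, with all treated libraries below control. Of the hypoxia reporters that passed, Vegfa and Ndrg1 were thus higher and Ankrd37 lower. Mycn stood at 159, 159 and 152 CPM in the control libraries, 132, 134 and 133 CPM with BRD0705 and 127, 130.3 and 129 CPM with CHIR, and was also lower with BRD0705, at -0.24 ± 0.05 (SE, adjusted p = 0.0263, edgeR). Between the inhibitors 1 gene of the list passed: Myc, at 60.3, 51.2 and 58.4 CPM in the control libraries, 72.5, 62.3 and 63.2 CPM with BRD0705 and 48.3, 46.7 and 48.0 CPM with CHIR, was higher with BRD0705 than with CHIR by 0.47 ± 0.07 on the log2 scale (SE, adjusted p = 0.000571, edgeR, and 0.00177 with the fibroblast marker covariate). With the fibroblast marker covariate, of the 6 genes called with CHIR only Mycn passed (adjusted p = 0.0481, edgeR), and with BRD0705 Mycn did not (0.554). Txnip (29.3% of its exon bases, Gm15441) and Ankrd37 (61.7%, Ufsp2) overlap genes on the other strand. Mean counts were 7724 for Txnip against 50.8 for Gm15441, and 147 for Ankrd37 against 394 for Ufsp2.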

How the data were processed

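RNA of 9 libraries of mouse embryonic stem cells labelled β-catenin-/-, 3 per group, was sequenced after 30 min of treatment. Groups and replicate numbers were taken from the library descriptions. The authors deposited whole-number read counts per gene symbol, which were tested here, and a second table of normalized values, handled as a signal, in which each library's counts were divided by a constant to within 5.1e-10 (relative deviation, read from the values). The submitters' processing notes name RSEM, DESeq2 and the build mm10 without a role or version; which annotation served, and whether strand was used in counting, is not given in the sources used here. Per the labels' protocols, ribosomal RNA was depleted, while the molecule label names polyA RNA; this was not resolved.

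The tests used edgeR 4.0.16 (R 4.3.3): filterByExpr with a minimum count of 10, TMM scaling and the quasi-likelihood F test, 2-sided, with all 9 libraries in 1 fit of 3 group means (6 residual degrees of freedom, common dispersion 0.00356). The threshold was 0.05 for p-values adjusted by Benjamini-Hochberg over all 15366 tested genes. CPM used TMM-scaled library sizes, and lengths came from GENCODE vM39. Depth was 17359422 to 20773337 counts per library; its precision is in the intervals. The procedure was tested on simulated data.

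The members, lists and rules were chosen with earlier results of these data known. Values in every library are given for the pathway genes named by the rule: members past the threshold, Gys1, Gyg, the isozyme groups and, per comparison, the 5 members with the largest absolute log2 fold change; of the other lists, genes past the threshold, at most 8 per comparison by lowest p. The marker genes Esrrb and Sox1 (CHIR against control), Col5a1 and Col1a1 (BRD0705 against control) and Klf4, Tdgf1, Sox1 and Esrrb (BRD0705 against CHIR) also passed. Their log2 fold changes were 0.22 and -0.76 in the first comparison, 0.32 and 0.31 in the second, and -0.35, -0.21, 0.67 and -0.15 in the third. Beyond the first 8, Klf4, Col1a1, Ndrg1, Myc and Col5a1 also passed with CHIR against control; the adjusted p was 0.0369 for Klf4, 0.0407 for Col1a1 and 0.0481 for Col5a1 (edgeR).

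Alternatives were no filter, a mean CPM of at least 1, median-of-ratios size factors, library size only, DESeq2 1.42.0, limma voom (limma 3.58.1), the replicate block, only the groups compared, the deposited signal as log2(value + 1) and log2(value + 0.1), a fibroblast marker covariate, each library left out, and, added after seeing the data, removal of GC and length trends (splines with 5 degrees of freedom), alone and with the replicate block.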

Additional observations from a re-analysis of the deposited data

How the results depend on the processing

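Of the members counted as passing with CHIR against control (1), removal of GC and length trends, chosen after seeing the data, gave 4, both alone and with the replicate block; leaving out each library gave 1 to 1. With BRD0705 against control (0), no filter on low counts gave 2 and DESeq2 gave 2, and leaving out each library gave 0 to 0. With BRD0705 against CHIR (2), scaling by library size only gave 1, and removal of GC and length trends gave 4 alone (Hk2, Pfkfb3, Slc16a1 and Slc2a3) and 4 with the replicate block; leaving out each library gave 0 to 3. With removal of GC and length trends, DESeq2 or no filter, calls over all tested genes rose in the same comparisons, as given in the next paragraph. The cause of these shifts was not tested, and the libraries left out also lower the sample number. All other alternatives kept the counts at 1, 0 and 2, and no called gene changed sign.

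The replicate block gave 1, 0 and 2 members. Replicate numbers are shared between groups, but the labels do not tie equal numbers together: same-numbered libraries had a mean correlation of deviations of -0.0012 (9 pairs) against 0.00062 for different numbers (18 pairs), and 3 of 9 libraries correlated best with their own number. The block moved the calls over all genes from 968, 188 and 1194 to 973, 222 and 1177. Other settings moved them further: with the fibroblast marker covariate 229, 0 and 914 genes passed, with GC and length trends removed 1653, 112 and 1463, and in BRD0705 against control 609 with no filter and 489 with DESeq2. Leaving out 1 library moved them to 514 to 1070, 21 to 305 and 616 to 1313.

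Removal of GC and length trends put the median log2 fold change of CHIR against control at 0.04 over all genes and 0.05 over the members, and that of BRD0705 against CHIR at -0.04 and -0.11. The GC trend itself did not overlap between BRD0705 and CHIR libraries, as given above. Calls of Vegfa, Txnip, Ndrg1, Ankrd37 and Myc with CHIR were lost with the fibroblast marker covariate, that of Myc also in 6 other alternatives, and those of Txnip (1 of 9), Ankrd37 (3 of 9), Ndrg1 (5 of 9) and Myc (7 of 9) when single libraries were left out, for Txnip CHIR replicate 2; that of Mycn with BRD0705 was lost in 5 of 9. Depth limits Ppp1r3c, with 44 to 81 counts per library, and Slc2a6.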
